A study of Mus musculus with 14 samples.

Results

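The genes described here are the secreted and membrane-bound cues of axon guidance and the receptors that read them: the semaphorins of classes 3 to 7 with the plexins and neuropilins, the ephrins with the Eph receptors, the Slits with the Robos, and the netrins with Dcc and the Unc5 receptors. They were chosen by gene symbol alone from the array's annotation, and 69 of the 23152 genes with a value carried such a symbol. Of these, 66 were among the 17364 genes left after the lowest 25% by mean level (a mean under 4.40 on the log2 scale) had been set aside as dim. The 66 comprised 20 semaphorins, 11 plexins and neuropilins, 8 ephrins, 12 Eph receptors, 6 Slits and Robos, and 9 netrins and netrin receptors. Epha1, Epha6 and Robo3 lay under the dim limit and are named only.

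The arrays came from cultured neural stem cells of the subventricular zone of neonatal mice (postnatal day 4), the germinal layer that lines the lateral ventricle. Each culture, called a clone in the labels, was started from 1 animal and then exposed to an adenovirus carrying Cre recombinase, so that the control cells had met the same virus. The Cic-/- cells (3 cultures, clones 5, 6 and 7) lack Capicua, a transcriptional repressor that is relieved by receptor tyrosine kinase signalling, and the Cic+/+ cells (4 cultures, clones 1 to 4) are the wild-type control. Every clone was grown for 24 h in proliferation medium with EGF, the growth factor on which such cultures depend, and without it. This gave 4 groups on 14 arrays: Cic-/- with EGF (n = 3), Cic-/- without EGF (n = 3), Cic+/+ with EGF (n = 4) and Cic+/+ without EGF (n = 4). The model is a culture of dividing precursors, and cells of the surrounding tissue that a guidance cue might reach are not part of it.

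Guidance cues steer growing axons and migrating cells by attraction or repulsion, and the receptors pass the signal to the actin cytoskeleton through small GTPases. In and around the subventricular zone the same molecules are known to act outside axons: Slits and their Robo receptors orient the migration of neuroblasts, ephrins and Eph receptors influence precursor proliferation and neuroblast movement, and semaphorins and netrin-1 guide oligodendrocyte precursors. Semaphorins signal through plexins, and the secreted class 3 members mostly need a neuropilin as the binding partner. Netrin-1 attracts through Dcc and repels through Unc5 receptors.

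A gene's level is the median log2 intensity of the probesets that name that gene alone, which for the 69 genes were 5 to 35 in number. Levels of different genes are not set against each other, because probes differ in how brightly they report. Capicua itself lay between 7.04 and 7.67 on the 6 arrays of Cic-/- cells and between 9.18 and 9.69 on the 8 arrays of Cic+/+ cells, so the arrays and the labels matched. Of 11 neural stem cell markers, 10 were on the array, their mean level was 9.95 to 10.45 on every array, and none had a group mean under the dim limit. Single markers ranged more widely over the arrays, with Nes at 8.05 to 10.60 and Hes5 at 7.28 to 10.46. With EGF, 2 of the 10 were higher and 8 lower in Cic-/- cells, and 3 higher and 7 lower in Cic+/+ cells. Between the genotypes, 2 were higher and 8 lower in Cic-/- cells with EGF, and 5 and 5 without EGF. None passed without the clone block described below, and Nes passed with it as higher with EGF in Cic+/+ cells. Myelinating oligodendrocyte markers (6 of 8 on the array) moved with both factors: their mean level was 5.30 to 5.58 in Cic-/- with EGF, 5.38 to 5.77 in Cic-/- without EGF, 5.83 to 6.30 in Cic+/+ with EGF and 7.63 to 8.18 in Cic+/+ without EGF. 5 of the 6 (Cldn11, Enpp6, Mag, Mbp and Ugt8a) passed the test as lower with EGF in Cic+/+ cells and as lower in Cic-/- cells without EGF. Astrocyte markers (6 of 6) had mean levels of 9.01 to 9.77 in Cic+/+ with EGF and 10.16 to 10.65 in Cic+/+ without EGF, with 3 passing as lower with EGF. Oligodendrocyte progenitor markers (6 of 6) had 8.82 to 9.25 in Cic-/- with EGF, 9.69 to 10.48 in Cic-/- without EGF, 9.73 to 10.25 in Cic+/+ with EGF and 10.33 to 10.67 in Cic+/+ without EGF. Gpr17 passed as lower with EGF in both genotypes, and Pdgfra as lower in Cic-/- than in Cic+/+ cells with EGF, where all 6 had a negative difference. For EGF itself, 3 of the 6 were higher and 3 lower in Cic+/+ cells, and all 6 were lower in Cic-/- cells. Neuroblast and neuron markers (7 of 8 on the array, 6 of them tested) had 5.96 to 6.15 in Cic-/- with EGF, 6.53 to 6.64 in Cic-/- without EGF, 6.33 to 6.40 in Cic+/+ with EGF and 6.42 to 6.54 in Cic+/+ without EGF. None of these passed without the clone block described below, and Dcx was lower with EGF in Cic-/- cells with it (adjusted p = 0.0518, and 0.00393 with the block). The part of these cell-type shifts in the changes of the guidance genes was not tested, and in a whole culture fewer cells of a type and less RNA per cell cannot be told apart.

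EGF changed a few of the guidance genes, and none passed the test between the genotypes. In Cic-/- cells Efna3 rose and Unc5c fell with EGF, which is 2 of the 66 genes (3.03%), where 0.19% of all genes tested passed. In Cic+/+ cells Sema3a rose and Unc5c fell with EGF, again 2 of the 66 (3.03%), where 0.898% of all genes passed. No guidance gene passed between the genotypes, with EGF (0.317% of all genes passed) or without EGF (0.553% of all genes), and none passed for the difference in EGF effect between the genotypes (0.00576% of all genes). At an unadjusted p under 0.05 the same limma fit had 7 guidance genes between the genotypes with EGF, 7 without EGF, 12 for EGF in Cic-/- cells, 19 for EGF in Cic+/+ cells and 4 for the difference. The shares of all genes at that level were 10.6%, 10.8%, 9.8%, 12.5% and 2.86%. A gene passed at a Benjamini-Hochberg adjusted p under 0.05 over all genes tested, in a limma fit of the 4 group means.

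The 2 arrays of a clone deviated from their group means together, so the same fit was also made with the clone as a block. With the block, 6 guidance genes (9.09%) passed for EGF in Cic-/- cells, beside 2.08% of all genes, and 12 (18.2%) in Cic+/+ cells, beside 5.17% of all genes, and 1, Ephb6, passed between the genotypes without EGF (0.697% of all genes). None passed between the genotypes with EGF (0.363%) or for the difference in EGF effect (0.0403%). 5 genes passed with the block in both genotypes: Efna3, Ntn4 and Sema3a, higher with EGF, and Plxnb1 and Unc5c, lower with EGF. Unc5a passed in Cic-/- and not in Cic+/+ cells, and Epha2, Epha4, Plxnb3, Sema4a, Sema4d, Sema6b and Sema6d passed in Cic+/+ and not in Cic-/- cells, although for none of these 8 did the difference between the genotypes pass. With the clone as a fixed term, 8 guidance genes passed for EGF in Cic-/- cells (2.99% of all genes), 12 in Cic+/+ cells (5.58%) and none for the difference (0.0173%). The lists were not the same: in Cic+/+ cells Epha4, Sema4a, Sema6b and Sema6d passed with the random block and not with the fixed term, and Plxna2, Plxnc1, Sema3c and Unc5b passed with the fixed term and not with the random block. The fixed term added Sema3c and Sema4d in Cic-/- cells. In what follows "rose" and "fell" are used of genes that passed without the block, a call that needs the block is named as such, and the block means the random one unless the fixed term is named. Every ± value is the SE of the fit without the block or the fixed term. Where the adjusted p beside it comes from another fit, the SE and the p belong to different fits.

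**Figure D1:**
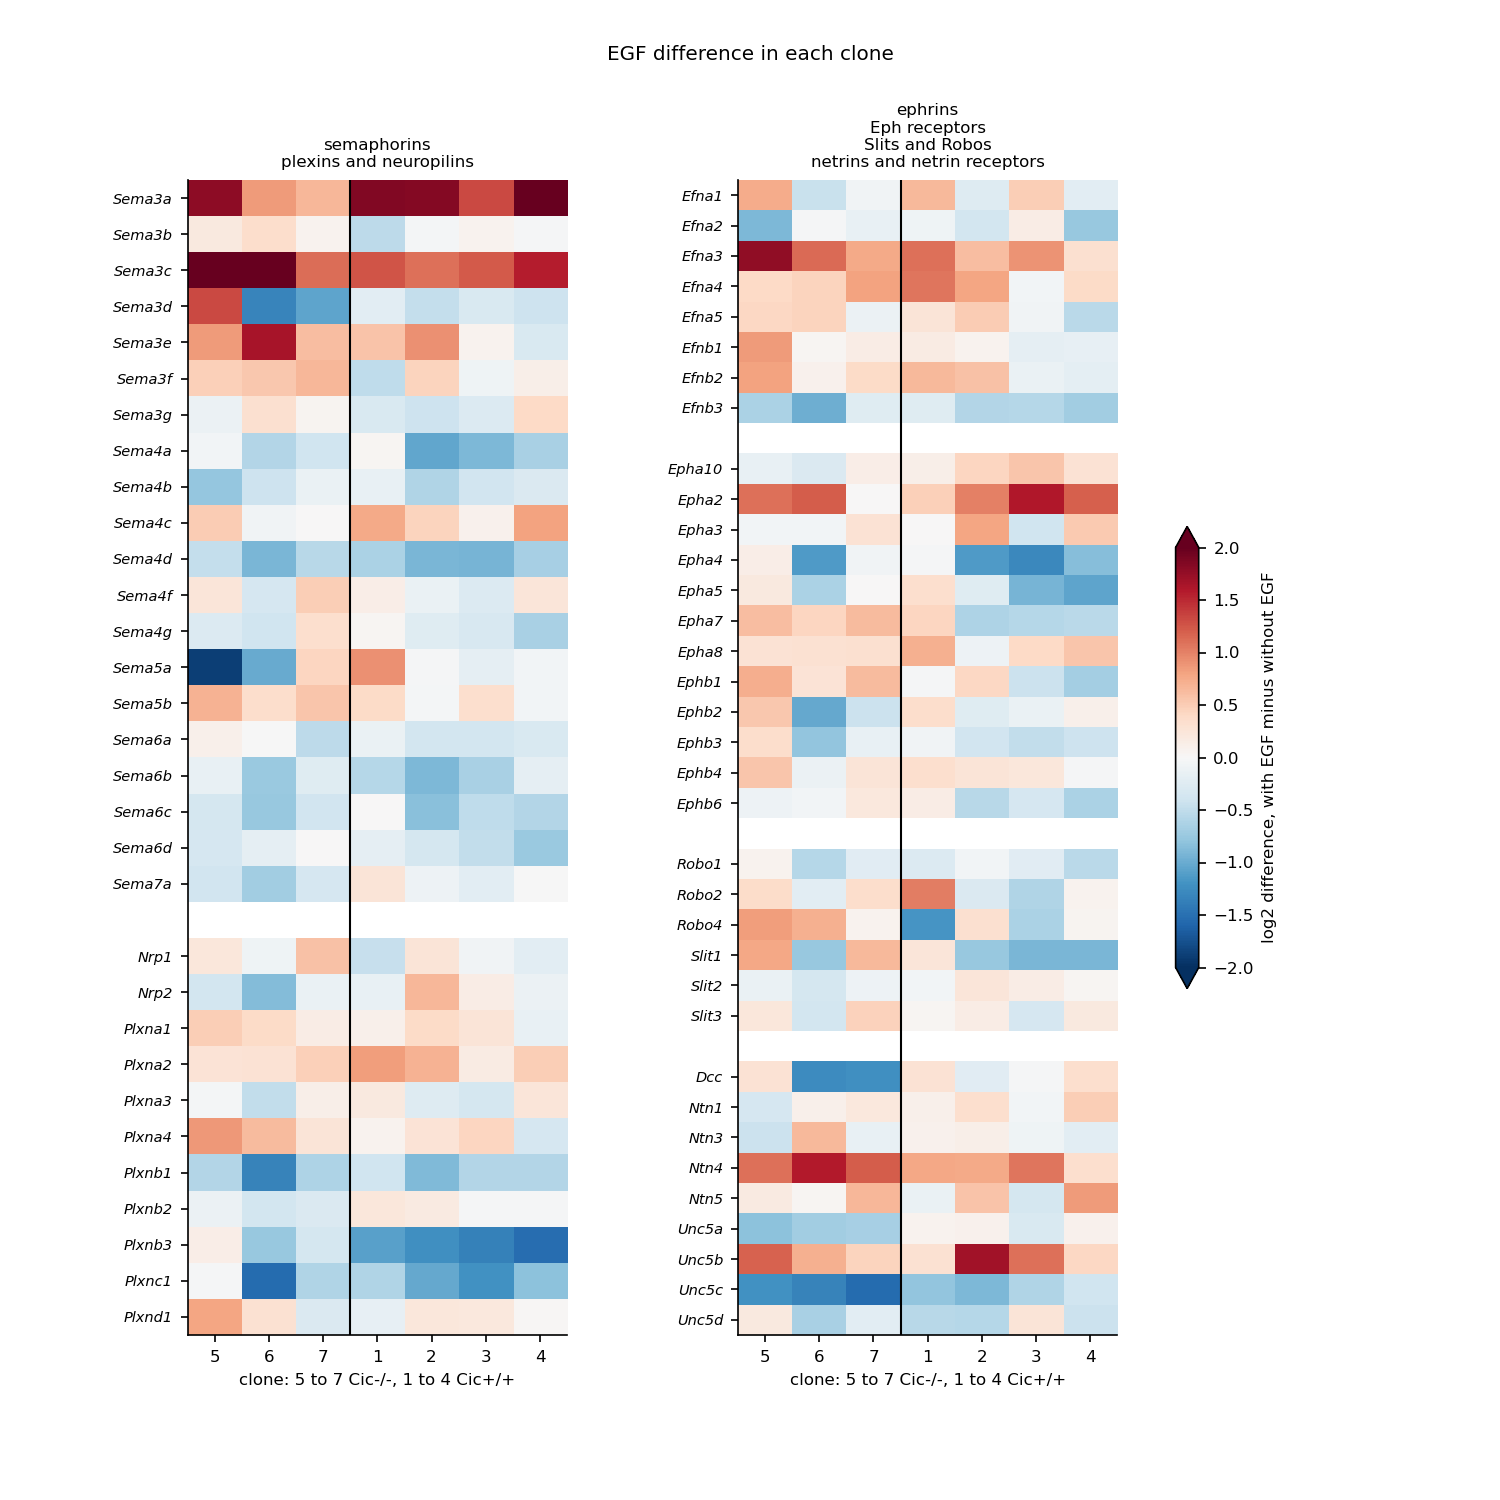
Difference in log2 level, with EGF minus without EGF, of the guidance genes (rows, grouped by family) in each clone (columns, Cic-/- clones left of Cic+/+ clones). Red is higher and blue is lower with EGF, on a scale that ends at 2.0 either way. Unc5c is lower in all 7 clones and Efna3, Ntn4 and Sema3a are higher in all 7.

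The sign of the EGF difference was shared by all 7 clones for 14 of the 66 genes, where 13.5% of all genes did so. The 7 that were higher with EGF in every clone (6.04% of all genes) were Efna3, Epha2, Ntn4, Plxna2, Sema3a, Sema3c and Unc5b. The 7 that were lower in every clone (7.43% of all genes) were Efnb3, Plxnb1, Plxnc1, Sema4b, Sema4d, Sema6b and Unc5c. For no guidance gene did all Cic-/- clones go one way and all Cic+/+ clones the other, which 1.08% of all genes did. In Cic-/- cells the arrays with EGF did not overlap those without EGF for 9 of the 66 genes (13.6%), beside 13% of all genes. In Cic+/+ cells they did not overlap for 11 of the 66 (16.7%), beside 8.39% of all genes. The median absolute EGF difference was 0.35 over the guidance genes and 0.17 over all genes in Cic-/- cells, and 0.29 over the guidance genes and 0.17 over all genes in Cic+/+ cells. The guidance genes had the larger median in the other comparisons too. Between the genotypes it was 0.24 against 0.17 with EGF and 0.25 against 0.17 without EGF. For the difference in EGF effect it was 0.25 against 0.16.

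Unc5c, a netrin receptor that mediates repulsion, was the only member that passed as lower with EGF in both genotypes without the block. Its levels in Cic-/- clones 5, 6 and 7 were 6.85, 6.62 and 6.58 with EGF, against 8.06, 7.96 and 8.12 without EGF. In Cic+/+ clones 1 to 4 they were 7.14, 6.94, 6.94 and 7.42 with EGF, against 7.93, 7.85, 7.53 and 7.82 without EGF. Every array with EGF lay below every array without EGF in both genotypes. Unc5c fell by 1.36 ± 0.16 (SE) on the log2 scale in Cic-/- cells, a 2.57-fold difference (limma adjusted p = 0.00419), and by 0.67 ± 0.14 in Cic+/+ cells, a 1.59-fold difference (adjusted p = 0.0382). With the block these adjusted p were 0.000336 and 0.00466. Without the block, the Cic-/- call was lost when clone 5 (adjusted p = 0.0521) or clone 6 (0.14) was left out, and the Cic+/+ call when clone 1 (0.109), 2 (0.355), 3 (0.132), 4 (0.0834) or 6 (0.0851) was left out. The EGF effect was more negative in Cic-/- cells by 0.69 ± 0.21 (95% interval -1.15 to -0.24), which had an unadjusted p of 0.00583 in limma and did not pass over all genes (adjusted p = 1.00, and 0.451 with the block). Against Cic+/+ cells, the 3 Cic-/- arrays were the lower ones with EGF and the higher ones without EGF, with no overlap in either medium, and neither genotype difference passed (log2 difference -0.43 ± 0.15, adjusted p = 0.313, with EGF, and 0.27 without EGF). The mean levels of the neuroblast and neuron, oligodendrocyte progenitor and astrocyte markers were also lower with EGF, without overlap in either genotype. Astrocyte markers were at 9.09 to 9.26 with EGF and 9.57 to 10.06 without EGF in Cic-/- cells. Neuroblast and neuron markers were at 6.33 to 6.40 with EGF and 6.42 to 6.54 without EGF in Cic+/+ cells. Of the 6 of these tested, 2 were higher and 4 lower with EGF in each genotype. The part of these lists in the Unc5c difference was not tested.

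The other Unc5 receptors did not follow Unc5c as a group. Unc5a, also a repulsive netrin receptor, stood at 6.35, 6.84 and 6.72 in Cic-/- cells with EGF, against 7.17, 7.54 and 7.38 without EGF, with no overlap. Its log2 difference of -0.73 ± 0.22 passed with the block (adjusted p = 0.0389) and not without it (adjusted p = 0.25). In Cic+/+ cells Unc5a was at 6.56, 7.08, 6.36 and 6.40 with EGF, against 6.49, 6.99, 6.66 and 6.31 without EGF, so the groups overlapped throughout. Without EGF, all 3 Cic-/- arrays of Unc5a lay above all 4 Cic+/+ arrays, a log2 difference of 0.75 ± 0.21 that did not pass (adjusted p = 0.156). Unc5b, a receptor also known from blood vessels, was at 9.47, 9.36 and 8.32 in Cic-/- cells with EGF, against 8.29, 8.65 and 7.89 without EGF, and at 7.92, 9.30, 9.38 and 8.18 in Cic+/+ cells with EGF, against 7.62, 7.61, 8.28 and 7.77 without EGF. It was higher with EGF in every clone, and neither genotype passed with or without the random block, while the Cic+/+ difference of 0.87 ± 0.35 passed with the clone as a fixed term (adjusted p = 0.0434).

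The RefSeq window of 250 bases before the Unc5c start site is printed because Unc5c was the only member called in both genotypes without the block. It lies at chr3:141465314-141465563 on the plus strand of GRCm38.p6, and none of the motifs described further on is in it.
Unc5c: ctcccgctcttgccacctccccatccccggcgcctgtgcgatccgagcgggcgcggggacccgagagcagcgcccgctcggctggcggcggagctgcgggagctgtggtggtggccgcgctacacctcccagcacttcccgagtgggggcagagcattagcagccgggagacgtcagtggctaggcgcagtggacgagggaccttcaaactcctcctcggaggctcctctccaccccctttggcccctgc

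Among the netrin ligands, Ntn4, a laminin-related netrin of basement membranes, was higher with EGF, and Ntn1, the classical diffusible netrin, had genotype groups that did not overlap. Ntn4 was at 9.40, 9.83 and 9.47 in Cic-/- cells with EGF, against 8.30, 8.24 and 8.26 without EGF. In Cic+/+ cells it was at 9.63, 9.57, 9.36 and 8.52 with EGF, against 8.86, 8.81, 8.29 and 8.18 without EGF. The Cic-/- groups did not overlap, and in Cic+/+ cells clone 4 with EGF lay below clones 1 and 2 without it. The log2 difference was 1.30 ± 0.27 in Cic-/- cells (adjusted p = 0.0683, and 0.00595 with the block) and 0.73 ± 0.23 in Cic+/+ cells (adjusted p = 0.182, and 0.0302 with the block).

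Ntn1 was at 10.61, 10.78 and 10.25 in Cic-/- cells with EGF, against 9.94, 10.13, 9.89 and 9.44 in Cic+/+ cells with EGF. Without EGF it was at 10.94, 10.68 and 10.04 in Cic-/- cells, against 9.85, 9.80, 9.94 and 8.95 in Cic+/+ cells. Every Cic-/- array lay above every Cic+/+ array in both media. The log2 difference was 0.69 ± 0.27 with EGF (adjusted p = 0.365) and 0.92 ± 0.27 without EGF (adjusted p = 0.186), and neither passed, with or without the block. Dcc, the attractive netrin receptor, was lower with EGF in Cic-/- clones 6 and 7 (7.71 and 6.72 with EGF, against 8.97 and 7.95 without EGF) and not in clone 5 (8.65 with EGF, against 8.37 without EGF). The remaining netrins and receptors, Ntn3, Ntn5 and Unc5d, passed in no comparison.

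**Figure D2:**
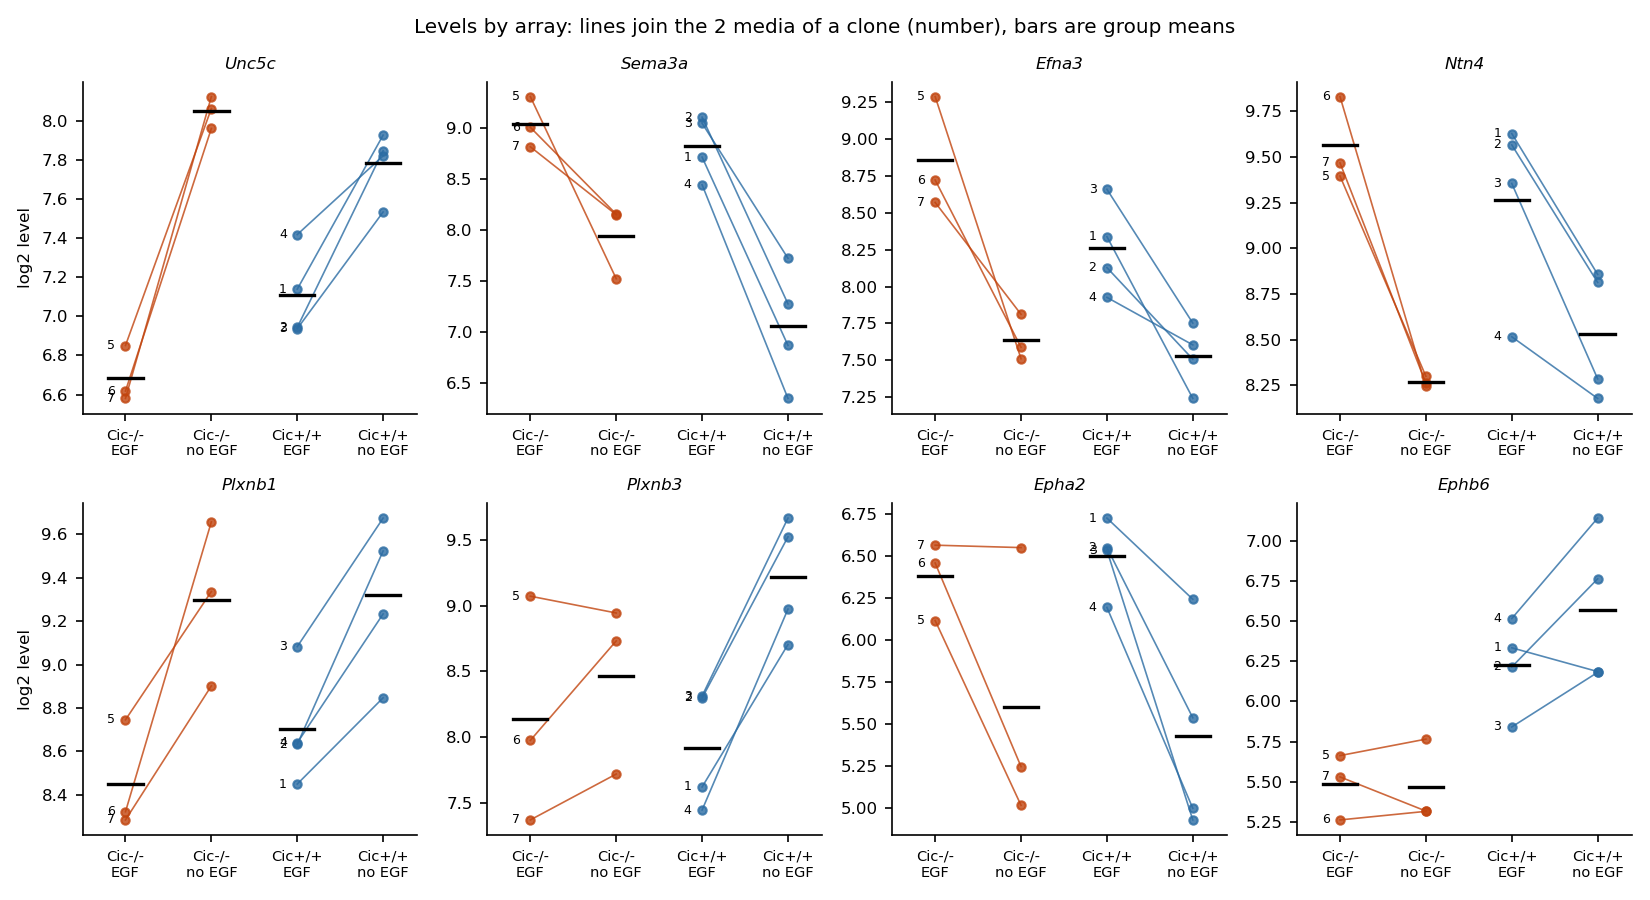
Log2 level of 8 guidance genes on every array, by group, with bars at the group means and lines joining the 2 arrays of a clone. In each panel Cic-/- stands left of Cic+/+ and the arrays with EGF stand left of those without. For Unc5c the lines go the same way in all 7 clones, with the arrays with EGF at 6.58 to 7.42 and those without EGF at 7.53 to 8.12.

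Sema3a, a secreted repellent that binds neuropilin-1 and class A plexins, rose with EGF in Cic+/+ cells by 1.77 ± 0.26 on the log2 scale, a 3.42-fold difference. Its levels in clones 1 to 4 were 8.71, 9.10, 9.04 and 8.44 with EGF, against 6.86, 7.27, 7.72 and 6.34 without EGF. In Cic-/- clones 5 to 7 they were 9.31, 9.00 and 8.81 with EGF, against 7.52, 8.15 and 8.15 without EGF. No array with EGF overlapped the arrays without EGF in either genotype. In Cic+/+ cells the adjusted p was 0.00601, and 0.000427 with the block; without the block it was 0.0733 when clone 2 was left out. In Cic-/- cells the difference of 1.10 ± 0.30 passed with the block (adjusted p = 0.0341) and not without it (adjusted p = 0.209). Without EGF, the log2 difference of Cic-/- over Cic+/+ cells was 0.89 ± 0.28 (adjusted p = 0.23), and 1 Cic-/- array lay within the Cic+/+ range.

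The RefSeq window before the Sema3a start site (chr5:13396534-13396783, plus strand, GRCm38.p6) is shown beside that of Unc5c because Sema3a rose and Unc5c fell with EGF in Cic+/+ cells. At 40.8% it had the lowest G and C content of the windows of all guidance genes, whose median was 64.4%, against 52.4% over all 32851 windows of the table.
Sema3a: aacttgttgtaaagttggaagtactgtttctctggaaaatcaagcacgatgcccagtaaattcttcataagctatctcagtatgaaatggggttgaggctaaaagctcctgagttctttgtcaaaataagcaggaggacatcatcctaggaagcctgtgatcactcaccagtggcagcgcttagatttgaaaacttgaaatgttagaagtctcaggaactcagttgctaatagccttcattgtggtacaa

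Sema3c, a secreted semaphorin that signals through neuropilins, was at 7.78, 7.64 and 9.08 in Cic-/- cells with EGF, against 5.63, 5.59 and 7.96 without EGF, and at 8.58, 6.87, 5.95 and 6.65 in Cic+/+ cells with EGF, against 7.31, 5.77, 4.71 and 5.09 without EGF. Its level was higher with EGF within every clone, while clones 1 and 7 stood above the others in both media. The Cic-/- log2 difference of 1.77 ± 0.78 had an adjusted p of 0.463, which was 0.107 with the clone as a random block and 0.00169 with the clone as a fixed term. In Cic+/+ cells the difference of 1.29 ± 0.68 passed only with the fixed term (adjusted p = 0.0024). Sema3b was at 4.96, 5.16 and 5.10 in Cic-/- cells without EGF, against 5.86, 5.65, 5.72 and 5.27 in Cic+/+ cells without EGF. Those groups did not overlap, and the log2 difference of -0.55 ± 0.17 did not pass (adjusted p = 0.224).

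The transmembrane semaphorins included 4 that were lower with EGF in Cic+/+ cells and passed with the block but not without it. Sema4d, a ligand of plexin-B1 that oligodendrocytes are known to carry, was at 5.95, 5.89, 6.23 and 6.18 with EGF, against 6.58, 6.81, 7.16 and 6.84 without EGF, with no overlap (log2 difference -0.79 ± 0.28, adjusted p = 0.251, and 0.0413 with the block). In Cic-/- cells it was at 6.68, 5.72 and 5.33 with EGF, against 7.15, 6.63 and 5.89 without EGF, lower in each clone and overlapping as groups. Sema4a, Sema6b and Sema6d, the last 2 being ligands of class A plexins, had log2 differences of -0.64 ± 0.19, -0.57 ± 0.19 and -0.44 ± 0.14 in Cic+/+ cells, with adjusted p of 0.0387, 0.0482 and 0.0454 with the block and 0.155, 0.215 and 0.192 without it. With the clone as a fixed term these calls were lost (adjusted p = 0.0618, 0.0514 and 0.075), while that of Sema4d was not (0.00587) and Sema4d passed in Cic-/- cells too (0.0397). Sema4a was not lower in clone 1, at 5.63 with EGF against 5.60 without EGF. The myelinating oligodendrocyte markers were lower with EGF in Cic+/+ cells too (mean level 5.83 to 6.30 with EGF, against 7.63 to 8.18 without EGF), and their part in these 4 differences was not tested. Over all 20 semaphorins, 6 were higher and 14 lower with EGF in Cic+/+ cells, with log2 differences of -0.79 to 1.77. Some of the 14 lay near 0, such as Sema3f (-0.008), Sema4f (-0.009) and Sema7a (-0.015). In Cic-/- cells 9 were higher and 11 lower, with differences of -0.82 to 1.77. Over all genes tested, 8615 were higher and 8749 lower with EGF in Cic+/+ cells, and 8864 higher and 8500 lower in Cic-/- cells.

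Plxnb1, the plexin that binds Sema4D, was lower with EGF in all 7 clones. It was at 8.75, 8.32 and 8.28 in Cic-/- cells with EGF, against 9.34, 9.66 and 8.90 without EGF, and at 8.45, 8.63, 9.08 and 8.64 in Cic+/+ cells with EGF, against 8.85, 9.52, 9.67 and 9.23 without EGF. The Cic-/- groups did not overlap, and in Cic+/+ cells clone 3 with EGF lay above clone 1 without it. The log2 differences were -0.85 ± 0.25 in Cic-/- cells (adjusted p = 0.234, and 0.039 with the block) and -0.62 ± 0.21 in Cic+/+ cells (adjusted p = 0.221, and 0.047 with the block).

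Plxnb3, a receptor for Sema5A, had the most negative EGF difference of any guidance gene in Cic+/+ cells. It was at 7.62, 8.30, 8.31 and 7.44 there with EGF, against 8.71, 9.53, 9.67 and 8.98 without EGF, with no overlap. The log2 difference of -1.30 ± 0.37 had an adjusted p of 0.132, and 0.0135 with the block. In Cic-/- cells Plxnb3 was at 9.07, 7.98 and 7.37 with EGF, against 8.95, 8.73 and 7.72 without EGF, and the difference of the EGF effects (0.97) did not pass. Myelinating oligodendrocyte markers also had their highest levels in Cic+/+ cells without EGF (7.63 to 8.18), and their part in the Plxnb3 difference was not tested. The gene is X-linked, and clone 4 differed from the others in Xist, the RNA of the inactive X: Xist was at 4.73 and 3.83 in clone 4 with and without EGF, against 11.96 to 12.57 on the other 12 arrays. The part of the Xist difference in the Plxnb3 values was not tested. The EGF difference of Plxnb3 was -1.53 in clone 4 and -1.09 to -1.36 in the other Cic+/+ clones. In Cic+/+ cells it was -1.22 to -1.37 with any 1 clone left out. The call with the block was lost when clone 2, 3 or 4 was left out, with an adjusted p of up to 0.0781.

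The remaining plexins and neuropilins passed in no comparison, with or without the random block, but with the clone as a fixed term Plxna2 (0.54 ± 0.20, adjusted p = 0.0422) and Plxnc1 (-0.91 ± 0.38, adjusted p = 0.031) passed for EGF in Cic+/+ cells. Plxna4, a class A plexin, was at 7.97, 7.24 and 6.66 in Cic-/- cells with EGF, against 6.27, 6.57, 6.59 and 6.53 in Cic+/+ cells with EGF. Those groups did not overlap, and the log2 difference of 0.80 ± 0.27 had an adjusted p of 0.275. Plxnc1, the receptor of Sema7A, was lower with EGF in every clone, with log2 differences of -0.03 in clone 5 to -1.54 in clone 6. Over the 11 plexins and neuropilins, 5 were higher and 6 lower with EGF in Cic-/- cells, and 6 were higher and 5 lower in Cic+/+ cells.

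Efna3, a membrane-anchored class A ephrin, rose with EGF in Cic-/- cells by 1.22 ± 0.22 on the log2 scale, a 2.33-fold difference (adjusted p = 0.0409, and 0.00537 with the block). It was at 9.28, 8.72 and 8.57 there with EGF, against 7.51, 7.59 and 7.81 without EGF. In Cic+/+ cells it was at 8.34, 8.13, 8.66 and 7.93 with EGF, against 7.24, 7.51, 7.75 and 7.61 without EGF. Arrays with EGF lay above those without EGF in both genotypes, with no overlap. The Cic+/+ difference of 0.74 ± 0.19 passed with the block (adjusted p = 0.0212) and not without it (adjusted p = 0.0947). Without the block, the Cic-/- call was lost when clone 2 (adjusted p = 0.0941), 4 (0.0618), 5 (0.264), 6 (0.408) or 7 (0.0651) was left out. With EGF, Efna3 was higher in Cic-/- than in Cic+/+ cells by 0.60 ± 0.21, which did not pass (adjusted p = 0.293). No other ephrin passed. Efnb2, a transmembrane ephrin, was at 7.04, 7.33 and 6.68 in Cic-/- cells without EGF, against 7.47, 7.35, 7.41 and 8.07 in Cic+/+ cells without EGF, without overlap (log2 difference -0.56 ± 0.25, adjusted p = 0.438).

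Of the Eph receptors, Epha2 was higher and Epha4 lower with EGF in Cic+/+ cells, each passing with the block but not without it. Epha2 was at 6.72, 6.55, 6.53 and 6.19 there with EGF, against 6.24, 5.53, 4.93 and 5.00 without EGF, and the groups overlapped by 1 array each, with a log2 difference of 1.08 ± 0.33 (adjusted p = 0.161, and 0.0288 with the block). In Cic-/- cells Epha2 was at 6.11, 6.46 and 6.56 with EGF, against 5.01, 5.24 and 6.55 without EGF, so clone 7 was as high without EGF as with it. Epha4, which binds ephrins of both classes, was at 6.15, 6.14, 5.96 and 6.14 in Cic+/+ cells with EGF, against 6.17, 7.28, 7.25 and 6.99 without EGF. Clone 1 showed almost no difference in Epha4, and the log2 difference of -0.82 ± 0.26 had an adjusted p of 0.177, 0.0491 with the block and 0.0718 with the clone as a fixed term.

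Ephb6, an Eph receptor without kinase activity, was the member that came nearest to a genotype difference. Without EGF it was at 5.76, 5.31 and 5.32 in Cic-/- cells, against 6.19, 6.76, 6.18 and 7.14 in Cic+/+ cells. With EGF it was at 5.66, 5.26 and 5.53 in Cic-/- cells, against 6.33, 6.21, 5.84 and 6.52 in Cic+/+ cells. Every Cic-/- array lay below every Cic+/+ array in both media. The log2 difference was -1.10 ± 0.24 without EGF (adjusted p = 0.0578, and 0.0417 with the block) and -0.74 ± 0.24 with EGF (adjusted p = 0.257, and 0.22 with the block). Without EGF, the call with the block was lost when any 1 of clones 2, 4, 5, 6 and 7 was left out, with an adjusted p of up to 0.178. Myelinating oligodendrocyte markers were lower in Cic-/- cells in the same comparison (5 of 6 passing), and their part in the Ephb6 difference was not tested.

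The window before the Epha2 start site (chr4:141300971-141301220, plus strand, GRCm38.p6) is shown because it was the window of a guidance gene that held an octamer to which Capicua is known to bind. The octamers searched were TGAATGAA and TGAATGGA on both strands, and the match, in capitals, ends 7 bases before the start site. Of all 32851 windows of 250 bases in the RefSeq table, 2.07% held such an octamer, and 1.33% of the 75 windows of the 59 guidance genes listed there did. Epha2 did not differ between the genotypes beyond the spread of the clones.
Epha2: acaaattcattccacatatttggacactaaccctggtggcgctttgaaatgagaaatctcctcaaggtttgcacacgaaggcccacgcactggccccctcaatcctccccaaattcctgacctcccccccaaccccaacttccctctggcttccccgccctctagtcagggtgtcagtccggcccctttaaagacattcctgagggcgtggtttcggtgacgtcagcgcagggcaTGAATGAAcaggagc
The AP-1 heptamer TGACTCA, the element bound by Fos and Jun proteins, was in 4.46% of all windows and in 2.67% of those of guidance genes, 1 window each of Sema4c and Sema6b. The Sema6b window (chr17:56133853-56134102, minus strand, GRCm38.p6) is printed with the match in capitals, which is the reverse complement TGAGTCA. Sema6b has another window in the table without it, and no match overlapped another. A match of letters does not show that a factor binds there.
Sema6b: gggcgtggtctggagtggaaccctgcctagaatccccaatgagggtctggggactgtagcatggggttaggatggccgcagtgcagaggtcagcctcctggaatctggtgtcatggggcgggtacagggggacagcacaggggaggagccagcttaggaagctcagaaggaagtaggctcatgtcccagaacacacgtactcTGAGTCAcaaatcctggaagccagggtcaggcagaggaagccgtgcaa

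None of the 6 Slits and Robos tested passed in any comparison, with or without the block. At an unadjusted p under 0.05 limma had 2 between the genotypes with EGF, 1 without EGF and 1 for the difference in EGF effect. The shares of all genes in these comparisons were 10.6%, 10.8% and 2.86%. Their EGF differences ran between -0.24 and 0.54 in Cic-/- cells and between -0.59 and 0.09 in Cic+/+ cells. Robo2, a Slit receptor, had the highest genotype difference of any guidance gene with EGF, 1.18 ± 0.53, and its levels of 8.85, 7.50 and 6.84 in Cic-/- cells with EGF, against 6.83, 7.14, 5.83 and 6.39 in Cic+/+ cells with EGF, overlapped (adjusted p = 0.443). Robo4, known from endothelial cells, was at 5.27, 5.32 and 5.11 in Cic-/- cells with EGF, against 4.11, 4.76, 4.45 and 4.26 in Cic+/+ cells with EGF, close to the dim limit and without overlap (log2 difference 0.84 ± 0.25, adjusted p = 0.21). The 6 endothelial markers were all on the array, and 4 of them were above the dim limit. Their mean levels were 4.77 to 4.86 in Cic-/- cells with EGF and 4.48 to 4.69 in Cic+/+ cells with EGF. Of the 6, 1 had a group mean under the dim limit in Cic-/- cells with EGF and 3 in Cic+/+ cells with EGF. The part of these markers in the Robo4 values was not tested. Slit1 was at 6.73, 8.21 and 6.91 in Cic-/- cells without EGF, against 7.64, 7.59, 8.56 and 8.66 in Cic+/+ cells without EGF, groups that overlapped (adjusted p = 0.433).

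**Figure D3:**
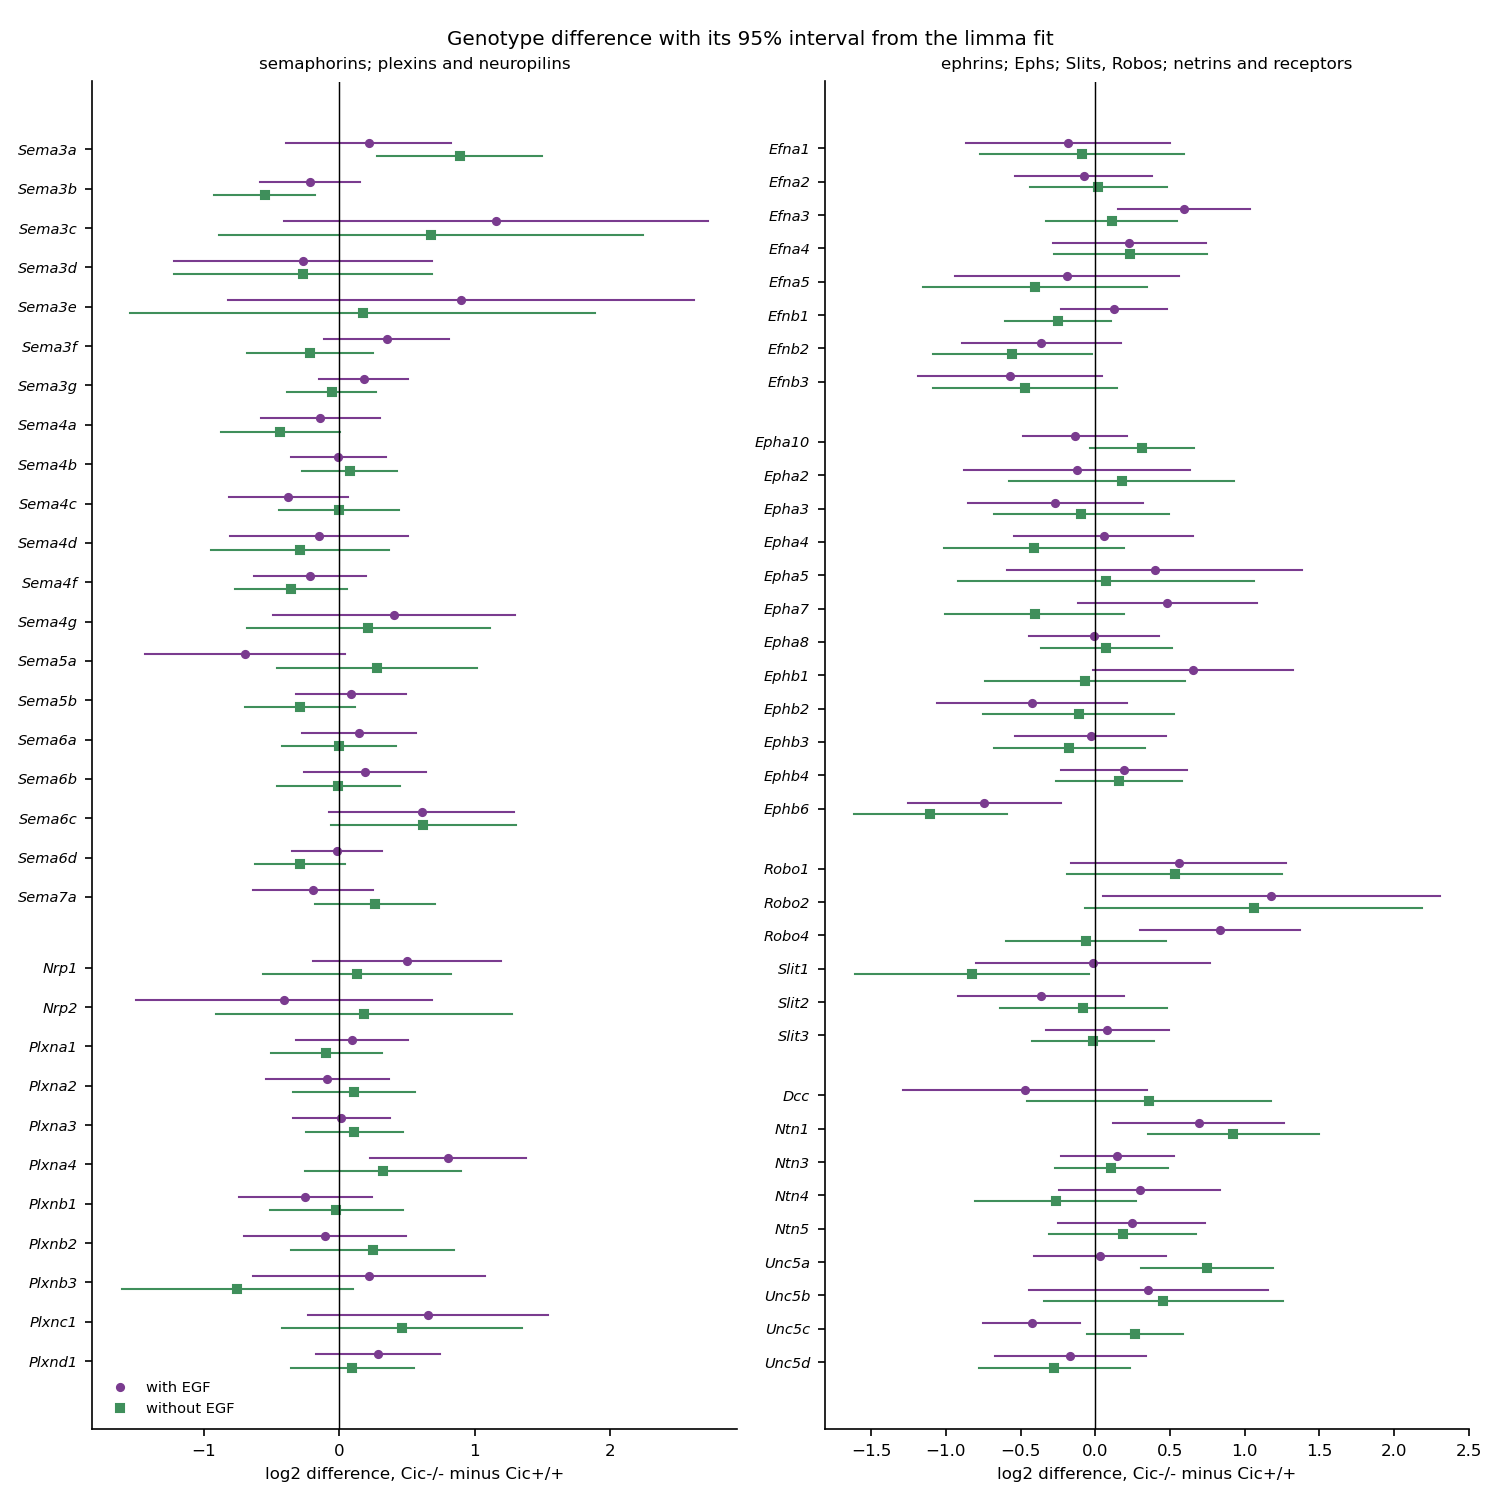
Log2 difference, Cic-/- minus Cic+/+, with its 95% interval from the limma fit, for the 66 guidance genes with EGF (circles) and without EGF (squares). Ephb6 lies at -0.74 with EGF and -1.10 without EGF and Ntn1 at 0.69 with EGF and 0.92 without EGF, and none of the differences passed after adjustment over all genes.

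Between the genotypes the groups of arrays did not overlap for 5 of the 66 genes with EGF (11.7% of all genes did not overlap) and for 6 without EGF (9.38% of all genes). With EGF these were Ntn1, Plxna4 and Robo4, higher in Cic-/- cells, and Ephb6 and Unc5c, lower in Cic-/- cells. Without EGF they were Ntn1, Unc5a and Unc5c, higher in Cic-/- cells, and Efnb2, Ephb6 and Sema3b, lower in Cic-/- cells. 2 genes, Ephb6 and Ntn1, kept 1 direction without overlap in both media, where 2.68% of all genes did so. All genotype differences of the 66 genes lay between -0.74 and 1.18 with EGF and between -1.10 and 1.06 without EGF, and both comparisons use separate arrays of the same clones. With EGF the oligodendrocyte progenitor markers were lower in Cic-/- cells as well (mean level 8.82 to 9.25 in Cic-/- cells, against 9.73 to 10.25 in Cic+/+ cells), and their part in these differences was not tested.

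For the difference in EGF effect, the guidance genes with an unadjusted p under 0.05 in limma were Unc5a and Unc5c, more negative in Cic-/- cells, and Epha7 and Robo4, more positive in Cic-/- cells. Epha7, an ephrin-A receptor, was at 7.11, 6.24 and 6.08 in Cic-/- cells with EGF, against 6.49, 5.81 and 5.44 without EGF. In Cic+/+ cells it was at 6.36, 5.75, 6.04 and 5.82 with EGF, against 5.93, 6.37, 6.61 and 6.36 without EGF. It was higher with EGF in all Cic-/- clones and lower in 3 of 4 Cic+/+ clones, and the difference of the effects, 0.89 ± 0.40 (95% interval 0.04 to 1.74), did not pass (adjusted p = 1.00, and 0.665 with the block).

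Sema5a, a transmembrane semaphorin with thrombospondin repeats, had the most negative difference in EGF effect of the 66 genes. It was at 7.46, 8.46 and 9.52 in Cic-/- cells with EGF, against 9.34, 9.46 and 9.09 without EGF. In Cic+/+ cells it was at 9.47, 9.07, 8.96 and 9.21 with EGF, against 8.56, 9.10, 9.14 and 9.27 without EGF. It was lower with EGF in clones 5 and 6 and higher in clones 7 and 1, and the other Cic+/+ clones differed by -0.18 to -0.03. The difference of the effects, -0.98 ± 0.49, did not pass (adjusted p = 1.00, and 0.794 with the block), and neither did the EGF difference in Cic-/- cells, -0.82 ± 0.37 (adjusted p = 0.48, and 0.227 with the block).

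**Figure D4:**
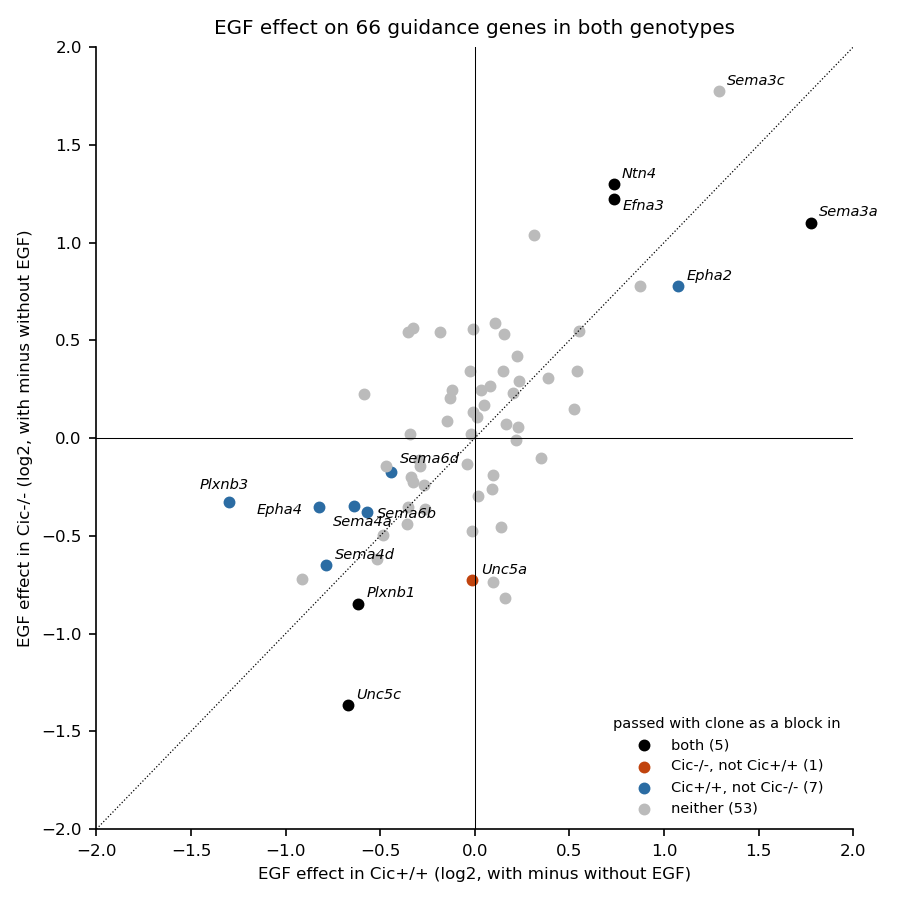
EGF effect (log2, with minus without EGF) in Cic-/- cells on the vertical axis against that in Cic+/+ cells on the horizontal axis for the 66 guidance genes, with colours for the calls made with the block. The dotted line marks equal effects. The 5 genes called in both genotypes, Efna3, Ntn4, Sema3a, Plxnb1 and Unc5c, have the same sign in both.

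The EGF effects in Cic-/- and in Cic+/+ cells come from separate arrays. Over the 66 genes, 46 (69.7%) had the same sign in both, with a Pearson r of 0.70 and a Spearman rho of 0.63 across genes. Over all 17364 genes 67.6% had the same sign, with r of 0.63 and rho of 0.52, so the guidance genes stood near the rest. Genes are not independent replicates, and the arrays of each genotype share their clones.

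The probesets of the called genes, each fitted on its own among 175315 probesets, mostly went the way of the gene. For Unc5c, 17 of 18 were lower with EGF in Cic-/- cells, of which 5 passed alone, and 17 of 18 were lower in Cic+/+ cells, of which 3 passed. For Sema3a, 29 of 32 were higher with EGF in Cic+/+ cells, of which 4 passed, and 30 of 32 were higher in Cic-/- cells, of which none passed. All 7 of Efna3 were higher with EGF in both genotypes, all 14 of Ntn4 were higher in both, and all 26 of Plxnb3 were lower in Cic+/+ cells. For Ephb6, all 21 were lower in Cic-/- than in Cic+/+ cells without EGF, and none passed alone. With EGF, 16 of the 21 were lower in Cic-/- cells. Other genes were less uniform. For Sema4a, 15 of 21 were lower with EGF in Cic+/+ cells. For Sema4d in Cic-/- cells, called only with the fixed term, 13 of 21 were lower with EGF. Their median difference was -0.13, against -0.65 for the gene. Robo4, which was not called, had 9 of its 18 probesets above the dim limit. Between the genotypes with EGF, 14 of the 18 were higher in Cic-/- cells, with a median of 0.30 against 0.84 for the gene. For the difference in EGF effect, 12 of the 18 were positive, with a median of 0.20 against 0.90. Probesets of 1 gene share the RNA of the same arrays and are not replicates.

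**Figure D5:**
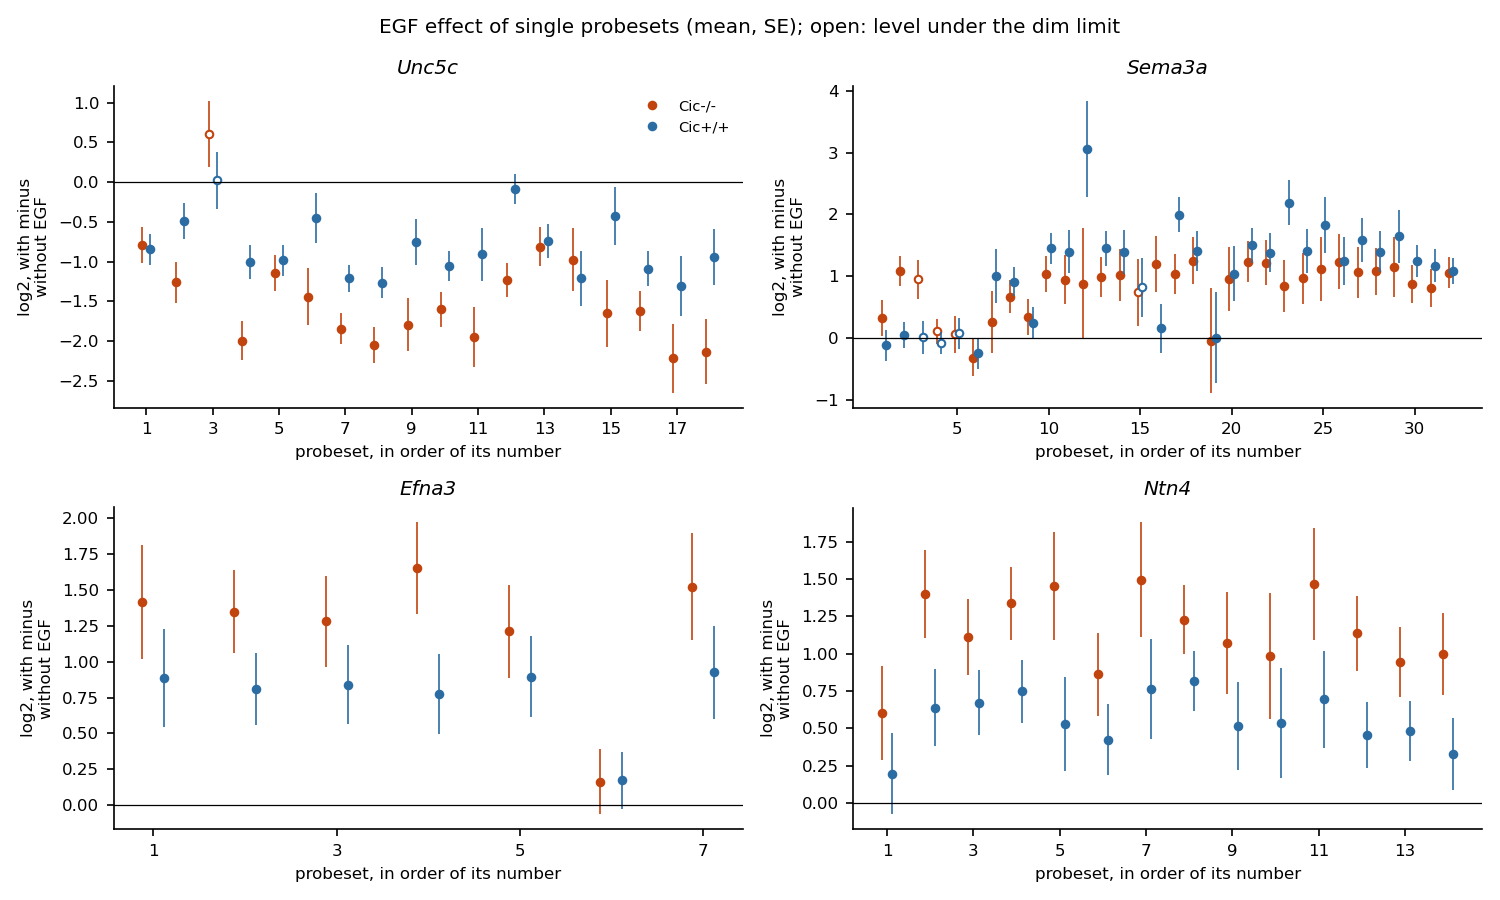
Log2 difference, with EGF minus without EGF, of each probeset of Unc5c, Sema3a, Efna3 and Ntn4, in the order of their numbers along the horizontal axis, in Cic-/- and in Cic+/+ cells, with bars for the SE. Open symbols have a mean level under the dim limit. For Unc5c 17 of 18 probesets lie below 0 in each genotype.

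Of the rest of the pathway, taken from lists written from general knowledge, few genes passed. Among 45 intracellular effectors tested of 50, 1 passed for EGF in Cic+/+ cells (0.898% of all genes passed) and none in the other 4 comparisons. At an unadjusted p under 0.05 limma had 5 of them between the genotypes with EGF and 4 without EGF (10.6% and 10.8% of all genes). It had 5 for EGF in Cic-/- cells, 9 for EGF in Cic+/+ cells and 0 for the difference (9.8%, 12.5% and 2.86% of all genes). The 1 that passed was Gap43, a growth cone protein, which rose with EGF in Cic+/+ cells by 1.44 ± 0.20 on the log2 scale (adjusted p = 0.00371). Within Cic-/- cells Gap43 was higher with EGF than without by 1.17 ± 0.23 (adjusted p = 0.0528, and 0.00731 with the block). With the block, 6 effectors passed for EGF in Cic+/+ cells, beside 5.17% of all genes. Gap43, Mical2, Srgap2 and Vav3 were higher with EGF, and Dpysl4 and Enah lower. Mical2, an actin-oxidising enzyme of the family that acts below plexins, differed by 1.48 ± 0.37 (adjusted p = 0.0887, and 0.0177 with the block), and Srgap2, a GTPase-activating protein of the Slit-Robo pathway, by 0.51 ± 0.12 (adjusted p = 0.0665, and 0.00917 with the block). For EGF in Cic-/- cells Gap43 and Enah passed with the block, beside 2.08% of all genes. With EGF, Dpysl5, a collapsin response mediator, was higher in Cic-/- than in Cic+/+ cells by 1.56 ± 0.32 (adjusted p = 0.0552, and 0.0483 with the block). Among 22 co-receptors and other cues tested of 23, none passed in any of the 5 comparisons. At an unadjusted p under 0.05 they numbered 4, 4, 5, 6 and 0 in the same order of comparisons, beside the same shares of all genes. With the block, Nrcam (-0.76 ± 0.19, adjusted p = 0.00937) and Slitrk2 (-0.86 ± 0.27, adjusted p = 0.0322) were lower with EGF in Cic+/+ cells, and Slitrk2 was also lower in Cic-/- cells (-1.06 ± 0.31, adjusted p = 0.0413).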

How the data were processed

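Total RNA of 7 clones in both media was labelled with biotin and hybridised to an Affymetrix mouse array. The authors' deposited values are log2 intensities per probeset, normalized with RMA per the submitters' processing notes; a version, the array build and any probe filter were not given in the sources used here. Of 269751 probesets, 233753 name 1 gene, 5106 several and 30892 none; the 23152 gene values are medians over probesets of 1 gene. Array medians lay between 6.49 and 6.54, and the number of arrays limits the precision. Clones are the replicates, and the labels say that each came from 1 animal.

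A model of 4 group means was fitted to all 14 arrays with limma 3.58.1 in R 4.3.3 (10 residual degrees of freedom), with Benjamini-Hochberg adjustment over 17364 genes. The clone pairs arrays with and without EGF: deviations from the group means correlated within clones at 0.156 to 0.616, each array best with its own clone, so the clone was also used as a random block (duplicateCorrelation, consensus correlation 0.348). Adjusted p-values named as made with the block come from that fit. The script was tested on simulated data.

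Named with values are members passing in any of the 5 comparisons, the 4 next by unadjusted p in each, the member of each family with the largest absolute difference, and, chosen after their values were seen, members (and listed effectors and co-receptors) passing with the block and a few singled out for clone differences. The members and lists were chosen with earlier results of these data known. Gene lists and promoter windows (RefSeq, GRCm38.p6, matched by symbol for 59 of 69 members) are descriptions, with no test on a list. Alternatives were the gene value, dim filter, normalization, prior, arrays in the fit, the block and leaving out each clone.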

Additional observations from a re-analysis of the deposited data

Results flagged for a closer look

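For the named genes, 52 groups of 4 arrays were examined for 1 array far from the other 3, and 3 were found, by a criterion set so that chance marks about 1 group in 20. Efnb2 in Cic+/+ cells without EGF was at 8.07 in clone 4, against 7.35 to 7.47 in the other clones. Ntn1 in Cic+/+ cells without EGF was at 8.95 in clone 4, against 9.80 to 9.94 in the others. Epha4 in Cic+/+ cells with EGF was at 5.96 in clone 3, against 6.14 to 6.15 in the others.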

How the results depend on the processing

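Without the block, EGF called 2 guidance genes in Cic-/- cells and 2 in Cic+/+ cells. With the clone as a replicate block, random or fixed, EGF called 6 or 8 guidance genes in Cic-/- cells and 12 or 12 in Cic+/+ cells (Epha4, Sema4a, Sema6b and Sema6d with the random block and not the fixed term, Plxna2, Plxnc1, Sema3c and Unc5b the reverse), and the random block called 1 (Ephb6) between the genotypes without EGF. For EGF in Cic-/- cells the count was 0 with the brightest probeset of each gene and 0 with only the 6 arrays of that comparison. Leaving out each clone in turn gave 0 to 2 for EGF in Cic-/- cells (0 without clone 5 or clone 6) and 0 to 2 for EGF in Cic+/+ cells (0 without clone 2), and 0 for the other comparisons. With the random block, in fits chosen after seeing the data, it gave 1 to 8 in Cic-/- cells (1 without clone 6, 3 without clone 5), 1 to 12 in Cic+/+ cells (1, 3, 4 and 6 without clones 2, 3, 4 and 7), 0 to 1 between the genotypes without EGF, 0 to 1 with EGF (1, Sema3d, without clone 5) and 0 for the difference. Unc5c in Cic-/- cells and Sema3a in Cic+/+ cells passed with the block in 7 of 7 such fits, Unc5c in Cic+/+ cells in all but that without clone 2, and Ntn4 in Cic-/- cells in all but that without clone 6; the other calls with the block were lost in 2 or more. The cause was not tested, beyond fewer arrays giving a wider error. Of 754 alternative values of 46 gene results, 705 kept direction and side of the threshold, 18 were weaker, 31 stronger and 0 reversed.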

Other observations

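Some guidance genes differed between clones by more than between groups; they were picked after their values were seen, and nothing was tested. Sema3e, a secreted semaphorin that binds plexin-D1, was at 7.14 and 6.53 in Cic-/- clone 7 with and without EGF and at 6.99 and 6.42 in Cic+/+ clone 1, against 3.62 to 5.53 on the other 10 arrays. Clones 7 and 1 were also the ones with the higher Sema3c. Nrp2, a neuropilin, was at 6.38, 7.36 and 8.49 in Cic-/- clones 5, 6 and 7 with EGF and at 6.75, 8.23 and 8.62 without EGF, so that the order of the clones was the same in both media. Robo2 had the opposite order in those clones, at 8.85, 7.50 and 6.84 with EGF and 8.48, 7.71 and 6.50 without EGF.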
